A study of Sus scrofa with 18 samples.

Results

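The lysosome genes of backfat were followed in Ningxiang pigs, a fat indigenous breed of China, from 60 to 360 days of age. A locus was taken as a lysosome gene when its KEGG annotation in the deposited table held the lysosome entry without that of oxidative phosphorylation, and when its level reached 0.5 FPKM in 3 or more of the 18 libraries. FPKM is the number of sequenced fragments of a gene, scaled by transcript length and by library size. The table holds 27883 loci, of which 113 carry the lysosome entry. Of these, 10 subunits of the proton pump also carry the other entry and were set aside, and 94 of the remaining 103 reached the minimum. The study's methods give the 18 pigs as castrated males, a label that 7 libraries do not bear out, with 3 pigs at each of 6 stages spaced 60 days apart, with no treatment and 1 library per pig from the thickest part of the shoulder backfat. The 3 pigs of a stage were full sibs and pigs of different stages shared 1 parent, so a difference between stages cannot be told apart from a difference between litters.

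The lysosome is the acidic compartment in which cells take apart proteins, glycans, lipids and nucleic acids delivered by endocytosis, phagocytosis and autophagy. Its hydrolases are made in the endoplasmic reticulum, tagged with mannose 6-phosphate in the Golgi, bound by sorting receptors there and carried on in coated vesicles. Its membrane carries heavily glycosylated proteins, transporters that export the products of digestion, and the pump that acidifies the lumen. In fat, adipocytes use acid lipase and autophagy beside the cytosolic lipases, and macrophages, which are rich in lysosomes, take up lipid and dead cells. Since whole tissue was sequenced, fewer cells of a type and less RNA per cell cannot be told apart.

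The 94 genes were placed in 8 groups by role. They are 14 proteases, 13 glycosidases, 9 sulfatases and other enzymes of heparan sulfate breakdown, 7 lipid hydrolases and their activators, 3 nucleases and phosphatases, 21 membrane proteins and transporters (soluble partners included), 6 sorting receptors and enzymes of the mannose 6-phosphate tag, and 21 subunits of clathrin, GGA and AP adaptors. Of the 94 loci, 14 carry further gene names besides the lysosome gene, so their values cannot be given to 1 gene. Among these are CD68, which shares its locus with EIF4A1 and other genes, CTSS with ARNT, LIPA with CH25H, GLB1 with TMPPE, ARSB with DMGDH and SORT1 with PSMA5. CTSL and CTSV are close paralogs, and reads shared between them could have been split by the counting.

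Counts per library ranged from 74077094 to 84236689. The adipocyte genes ADIPOQ, PLIN1 and FABP4 stood at no less than 100 FPKM, 51.3 FPKM and 69.1 FPKM in every library. Against the stated sex, Y-linked genes were nearly absent in 7 libraries, at 0.226 to 0.911 CPM (counts scaled to library size) in 60 days replicates 1 and 3, 120 days replicate 2 and all 3 libraries of 180 days, and at 13.05 CPM in 300 days replicate 2, against 128 to 278 CPM in the other 11. The locus RF01881 on the X chromosome stood at 21.1 to 39.3 FPKM in the same 7 libraries and at 0.0190 to 0.067 FPKM in the other 11. In 360 days replicate 3 the 10 most abundant loci took 19.0% of the counts, against 9.37% to 14.3% elsewhere. The paper's sequencing statistics also give this library the highest GC content and the lowest share of mapped reads of all libraries. Results are therefore given with and without the 7 libraries. Some are also given with Y-linked level as a covariate, set to low in these 7 and not low in the other 11. Differences between stages were tested with the quasi-likelihood test of edgeR on counts scaled by TMM, over 19470 loci in 1 fit, and log2 fold changes refer to that scale. On the FPKM scale the median locus differed by -0.19 (log2) between 360 and 60 days, against -0.01 after TMM scaling, so FPKM differences between these stages are to be read against that shift. SE stands for the standard error of a log2 fold change.

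Levels of the lysosome genes spanned a wide range. Per library, the mean FPKM of a gene ran from 0.364 for ACP5, an acid phosphatase, to 131 for CD164, a sialomucin of endosomes and lysosomes, with a median of 6.15. CD164 and CD63, a tetraspanin of late endosomes, were the only 2 members at 100 FPKM or more, 30 reached 10, and 4 lay under 1. The 10 most abundant members (CD164, CD63, LAPTM4A, NPC2, CTSD, LGMN, PSAP, IDS and LAMP1 among them) held 48.6% of the summed FPKM of all 94. By group, the median level was 14.9 FPKM for proteases, 11.9 for lipid hydrolases, 11.02 for membrane proteins, 6.59 for sorting receptors and tag enzymes, 6.17 for glycosidases, 3.48 for sulfatases, 3.25 for nucleases and phosphatases and 3.22 for adaptors.

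Most members varied little with age. The ratio of the highest to the lowest stage mean FPKM had a median of 1.38, and 15 members differed by 2-fold or more between stages. Members at their highest stage mean of scaled counts at 360 days numbered 45 of 94, against 22.8% of all loci tested, and 43 had their lowest at 60 days, against 20.8% of all loci. Among the proteases, 10 of 14 were highest at 360 days and 11 of 14 lowest at 60 days. The sum of the 94 genes was 1056 to 1128 FPKM at 60 days, 1158 to 1333 FPKM in the 9 libraries of 180, 240 and 300 days, and 1137 to 1368 FPKM at 360 days, so that the 60-day libraries were the lowest of the 18.

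The test across all 6 stages called 12 of the 94 members at an adjusted p of at most 0.05, where 6.57% of all loci were called, and 44 had an unadjusted p under 0.05 (25.9% of all loci). They were LITAF (edgeR adjusted p = 0.00058), CTSD, NPC1, CTSH, LGMN, CTSZ, AP3M2, CTSB, SLC11A1, CD164, AP3B1 and NPC2. By group these were 5 of 14 proteases, 5 of 21 membrane proteins and 2 of 21 adaptor subunits, and none of the glycosidases, sulfatases, lipid hydrolases, nucleases and phosphatases or sorting receptors and tag enzymes, of which 5, 3, 5, 1 and 1 had an unadjusted p under 0.05. DESeq2 called 36 members in this test, where it called 21% of all loci. The count fell to 4 without 60 days replicate 1, to 5 without replicate 2 or replicate 3 of that stage, and was 20 without 360 days replicate 1. When the Y-linked level entered as a covariate 5 members were called, and without the 7 libraries low in Y-linked genes LITAF alone.

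The largest contrast was between the ends of the series. A contrast was called at an adjusted p up to 0.05 together with a fold of 2 or more in either direction, a log2 value of 1. By this rule 11 members were higher at 360 than at 60 days, where 3.07% of all loci were called higher, and 0 were lower, where 2.04% were. An unadjusted p under 0.05 was found for 43 members, 39 higher and 4 lower, against 28.3% of all loci. DESeq2 called 12 members, where it called 7.05% of all loci. The 11 were the proteases CTSL, CTSD, CTSZ, LGMN, CTSH and CTSB, the nuclease DNASE2, the membrane proteins SLC11A1, LITAF and NPC1, and the adaptor subunit AP3M2. Of the 94, 70 had a log2 fold change above 0 (48.8% of all loci did), with a median of 0.27 for the members and -0.01 for all loci. The group medians were 0.86 for proteases, 0.51 for the 3 nucleases and phosphatases, 0.37 for glycosidases, 0.26 for sulfatases, 0.19 for lipid hydrolases, 0.16 for sorting genes, 0.15 for adaptors and 0.10 for membrane proteins. On the FPKM scale 55 of the 94 members were higher and their median difference was 0.07, and that of the proteases 0.65. With 1 library left out, 7 of the 11 calls (CTSD, CTSL, CTSZ, LGMN, LITAF, NPC1 and SLC11A1) were made in all 18 fits. CTSB fell short of the fold of 2 without 360 days replicate 2 or 3 (log2 fold changes 0.95 and 0.91), CTSH without 60 days replicate 1 (0.9985), and DNASE2 without 60 days replicate 1 or 360 days replicate 3 (0.97 and 0.93). When the Y-linked level entered as a covariate 11 members were called. Without the 7 libraries low in Y-linked genes, which leaves 1 library at 60 days whose spread is taken from the other stages, LITAF was the only call, while 70 of 94 members were still higher with a median of 0.28.

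**Figure D1:**
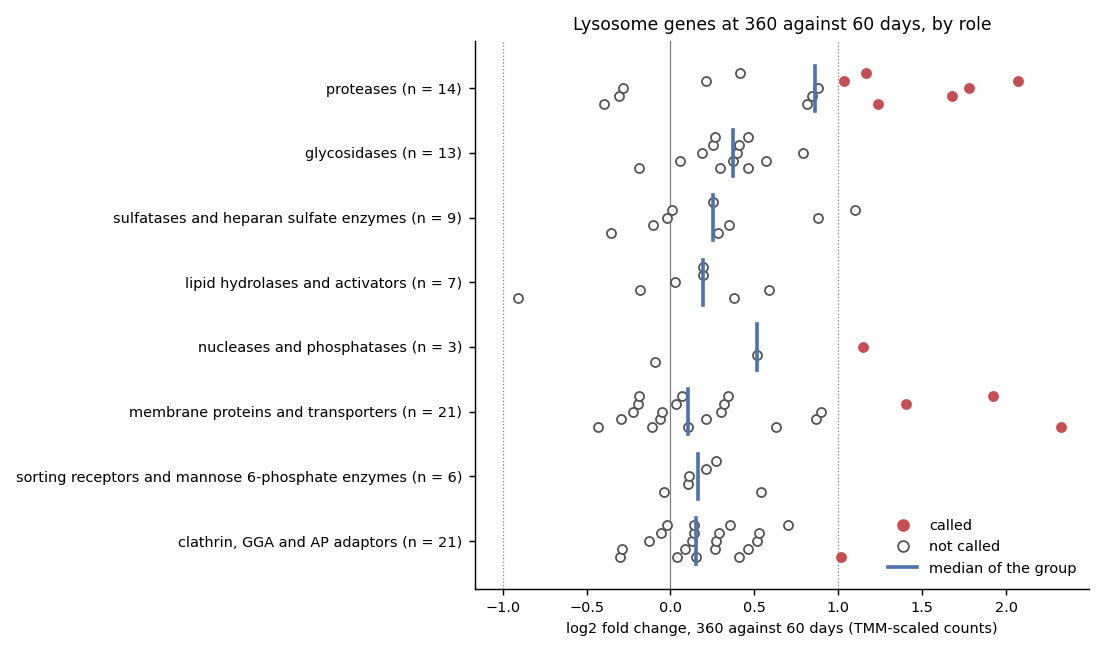
Log2 fold change of each of the 94 lysosome genes at 360 against 60 days (x axis, edgeR on TMM-scaled counts, n = 3 pigs per stage), by role (y axis). Filled red points are the 11 genes called, open points were not called, blue bars are group medians and dotted lines mark a log2 fold change of 1 in either direction. The proteases lie farthest to the right, with a median of 0.86 and 6 of the 11 calls, and no gene past -1 is seen.

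The plot of fold changes by role shows that the calls were spread over 4 groups while the other 4 had none. Of the members, 24 passed the adjusted p alone in this contrast (11.9% of all loci did), 23 of them higher. The exception was MFSD8, a transporter-like protein of the lysosomal membrane, at -0.43 on the log2 scale (SE 0.124, edgeR adjusted p = 0.0352). In scaled counts, the 3 libraries of 360 days lay above the 3 of 60 days for 36 members and below them for 3 (SMPD1, HGSNAT and MFSD8), where 15.6% of all loci did so in each direction.

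Between adjacent stages the calls were few. From 60 to 120 days, 1 member passed, CTSH, where 0.175% of all loci were called higher and 0.0565% lower. An unadjusted p under 0.05 was found for 28 members (13.3% of all loci), 27 of them higher. DESeq2 called 5 members there, where it called 1.71% of all loci. The CTSH call was made in 6 of the 18 fits that left out 1 library, in none of those without a library of 60 or 120 days, and was lost without the 7 libraries low in Y-linked genes. Of the 94, 73 were higher at 120 days (48.2% of all loci), with a median of 0.17, and 13 of the 14 proteases were, with a median of 0.60. The 3 libraries of 120 days lay above those of 60 days for 37 members, where 11.7% of all loci did, and below them for 4, where 12.6% did. Between 120 and 180, 180 and 240, 240 and 300, and 300 and 360 days no member was called by edgeR, and 0% of all loci were. In these comparisons 9, 15, 4 and 18 members had an unadjusted p under 0.05, against 12.4%, 9.33%, 3.78% and 9.08% of all loci, and DESeq2 called 2, 1, 0 and 0, where it called 1.29%, 0.575%, 0.0976% and 0.339% of all loci. From 300 to 360 days 68 of the 94 members were higher (51.8% of all loci), with a median of 0.14. From 300 to 360 days 1 member was called without 360 days replicate 1, where 12 of all loci were.

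Set against the mean of the other 5 stages, 60 days had 7 members called lower, where 0.95% of all loci were, and none called higher, where 1.23% were. These were CTSL, LITAF, SLC11A1, AP3M2, CTSD, NPC1 and CTSZ, with 35 members at an unadjusted p under 0.05 (23.4% of all loci), 30 of them lower. By adjusted p alone 17 members passed, where 6.74% of all loci did, and DESeq2 called 7 where it called 3.18% of all loci. Without 60 days replicate 3 the count was 4, with CTSL, CTSZ and SLC11A1 lost, and without the 7 libraries low in Y-linked genes it was 0. In scaled counts, 14 members were lower in all 3 libraries of 60 days than in each of the other 15, where 1.84% of all loci were, and none was higher in all 3, where 2.24% of loci were. The 14 were the proteases CTSA, CTSB, CTSD, CTSL, CTSZ and LGMN, the membrane group's NPC1, NPC2, LAMP1 and LITAF, the adaptor genes AP3M2, GGA2 and CLTB, and the glycosidase IDUA.

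Among the proteases, CTSD, the aspartic protease cathepsin D that begins the breakdown of many proteins (MSTRG.10872, chromosome 2 of Sscrofa11.1, 1184804 to 1198471), was the most abundant. Its FPKM was 22.8, 20.4 and 19.7 at 60 days, 38.1, 38.2 and 33.0 at 120 days, 39.2, 42.5 and 37.8 at 180 days, 41.5, 38.5 and 49.6 at 240 days, 53.7, 40.7 and 49.2 at 300 days, and 36.3, 71.8 and 79.7 at 360 days. All 15 later libraries lay above the 3 of 60 days, and at 360 days replicate 1 was far below the other two. The mean rose from 21.0 ± 1.60 to 62.6 ± 23.1 FPKM (SD, n = 3) from 60 to 360 days, a log2 fold change of 1.78 (SE 0.229, edgeR adjusted p = 0.000561). That call held with each of the 18 libraries left out, and its adjusted p was 0.0958 without the 7 libraries low in Y-linked genes.

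CTSL, the cysteine protease cathepsin L (MSTRG.2501, chromosome 10, 27666976 to 27675171), had the largest fold among the proteases. Its FPKM was 3.43, 2.30 and 1.08 at 60 days, 4.46, 8.41 and 3.63 at 120 days, 6.89, 8.97 and 4.94 at 180 days, 8.32, 5.32 and 4.49 at 240 days, 6.84, 6.07 and 7.27 at 300 days, and 5.595, 10.6 and 8.85 at 360 days. The 60-day libraries were the 3 lowest of the 18, and the later stages overlapped each other. From 60 to 360 days CTSL rose by a log2 fold change of 2.07 (SE 0.405, edgeR adjusted p = 0.00628), although the test across the 6 stages did not call it (adjusted p = 0.0555). Its paralog CTSV went from 7.37 to 9.97 FPKM at 60 days to 10.9 to 16.0 FPKM at 360 days, a log2 difference of 0.84 (edgeR adjusted p = 0.0142) below the minimum for a call.

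CTSZ, the carboxypeptidase cathepsin Z (MSTRG.10129, chromosome 17, 59141497 to 59149377), stood at 10.4, 11.4 and 9.93 FPKM at 60 days, at 22.6, 17.8 and 25.9 at 120 days, at 15.0, 17.3 and 16.2 at 180 days, at 19.9, 19.0 and 17.2 at 240 days, at 18.3, 17.6 and 21.0 at 300 days, and at 14.8, 39.2 and 34.7 at 360 days. It was lowest at 60 days in every library, and at 360 days replicate 1 lay below all of 120 days while the other two were the highest of all. From 60 to 360 days it rose 3.21-fold (log2 fold change 1.68, SE 0.262, edgeR adjusted p = 0.00157).

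LGMN, legumain, which cuts after asparagine and matures several cathepsins (MSTRG.20700, chromosome 7, 114175183 to 114217319), had 29.5, 26.6 and 25.0 FPKM at 60 days, 44.6, 40.9 and 34.6 at 120 days, 31.5, 46.0 and 47.4 at 180 days, 32.1, 35.3 and 38.2 at 240 days, 40.5, 36.2 and 43.7 at 300 days, and 41.4, 75.9 and 51.8 at 360 days. All later libraries exceeded those of 60 days, with 360 days replicate 2 the highest. It rose 2.36-fold from 60 to 360 days (log2 fold change 1.24, SE 0.189, edgeR adjusted p = 0.00135), a call made with each of the 18 libraries left out.

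CTSB and CTSH differed from CTSD in their course. CTSB, cathepsin B (MSTRG.6688, chromosome 14, 15006369 to 15035086), stood at 20.4, 19.8 and 19.2 FPKM at 60 days, 37.6, 31.3 and 30.3 at 120 days, 26.0, 24.3 and 28.2 at 180 days, 23.7, 28.5 and 23.2 at 240 days, 22.0, 25.7 and 28.1 at 300 days, and 26.0, 41.9 and 38.5 at 360 days. CTSH, the aminopeptidase cathepsin H (MSTRG.20003, chromosome 7, 48078019 to 48106074), stood at 5.14, 7.95 and 7.32 FPKM at 60 days, 17.2, 11.12 and 14.1 at 120 days, 7.39, 7.07 and 9.26 at 180 days, 9.18, 7.37 and 8.16 at 240 days, 7.82, 9.12 and 8.45 at 300 days, and 9.05, 17.0 and 14.2 at 360 days. Both were high at 120 days and in replicates 2 and 3 of 360 days, with CTSH between 180 and 300 days overlapping its 60-day range and CTSB above it. From 60 to 360 days CTSB rose by a log2 fold change of 1.03 (SE 0.171) and CTSH by 1.17 (SE 0.226), with edgeR adjusted p of 0.00227 and 0.00591. CTSH also rose from 60 to 120 days, by 1.14 (SE 0.226, edgeR adjusted p = 0.047). From 120 to 180 days CTSH had a log2 fold change of -0.83 that was not called (adjusted p = 0.155).

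Of the other 8 proteases none was called in any test. CTSA, a carboxypeptidase that also shields beta-galactosidase and sialidase, went from 14.5 to 18.3 FPKM at 60 days to 20.2 to 29.6 FPKM at 360 days (log2 fold change 0.88, edgeR adjusted p = 0.00654). CTSS, the cathepsin of antigen-presenting cells whose locus also holds ARNT, reached 35.1 FPKM in 360 days replicate 2 against 13.7 in replicate 1. TPP1, a tripeptidyl peptidase, stayed between 16.8 and 24.4 FPKM, and CTSF, cathepsin F, between 10.6 and 17.8 FPKM. CTSC, which activates the serine proteases of leukocytes, CTSO and CTSW, a protease of cytotoxic lymphocytes, had log2 fold changes of -0.31, -0.28 and -0.40 at 360 against 60 days, with edgeR adjusted p of 0.416, 0.573 and 0.318. The interval of the CTSC difference ran from -0.80 to 0.19 (95%).

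**Figure D2:**
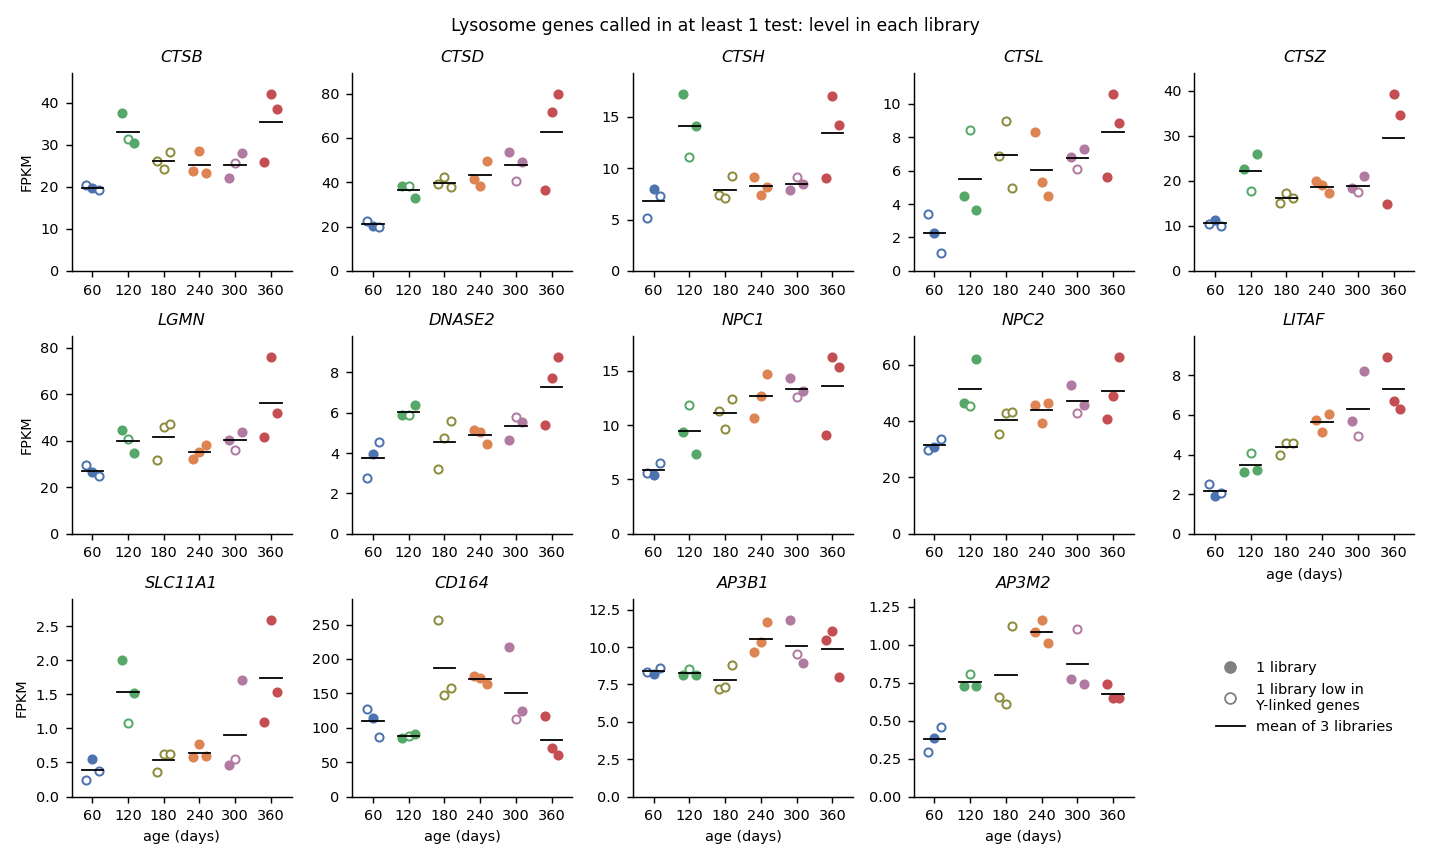
FPKM (y axis) of the 14 lysosome genes called in at least 1 of the 8 tests, in each of the 18 libraries by age in days (x axis). Each point is 1 library (1 pig), open where Y-linked genes were low, and the bar is the mean of 3. CTSD, NPC1 and LITAF are lowest at 60 days and stay above that level at every later stage, CTSH and SLC11A1 are highest at 120 and 360 days, and CD164 is lowest at 120 and 360 days.

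The glycosidases, which trim sugars from glycoproteins and glycolipids, showed no call in any test, with 7 of 13 at an unadjusted p under 0.05 at 360 against 60 days (28.3% of all loci). Their sum was 80.4 to 83.1 FPKM at 60 days, 90.0 to 98.8 at 120 days, 79.2 to 82.4 at 240 days and 84.6 to 99.5 at 360 days. MAN2B1, the acid alpha-mannosidase, led them at 20.8 FPKM on average, followed by HEXA, a subunit of beta-hexosaminidase, and IDUA, which takes iduronate off heparan and dermatan sulfate. IDUA had the largest change at 360 against 60 days, from 5.99, 6.72 and 6.27 FPKM to 7.36, 8.92 and 12.2 FPKM, a log2 fold change of 0.79 (SE 0.183, edgeR adjusted p = 0.0139) that missed the minimum of 1. GLB1, the beta-galactosidase whose locus also holds TMPPE, followed at 0.57 (adjusted p = 0.0292) and NEU1, the sialidase, at 0.46 (adjusted p = 0.0822).

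The glycosidases named for storage diseases had small differences. At 360 against 60 days the log2 fold change was 0.06 (95% interval -0.23 to 0.34) for GLA, the alpha-galactosidase of Fabry disease, 0.26 (-0.08 to 0.61) for GAA, the acid glucosidase of Pompe disease and 0.30 (0.00 to 0.59) for HEXA. None was called. GLA had 2.10, 2.30 and 2.13 FPKM at 60 days and 2.07, 2.08 and 1.83 at 360 days, so that its sign depends on the scale. It was lowest at 240 and 300 days, between 1.39 and 1.83 FPKM, below every library of 60, 120 and 180 days (2.04 FPKM or more).

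The sulfatases and heparan sulfate enzymes had no call either, with 4 of 9 at an unadjusted p under 0.05 at 360 against 60 days (28.3% of all loci). IDS, which takes sulfate off heparan sulfate, stood at 35.03 FPKM on average. ARSB, the sulfatase of dermatan sulfate in a locus shared with DMGDH, and SGSH, the heparan sulfamidase, had log2 fold changes of 1.098 (SE 0.359, edgeR adjusted p = 0.0587) and 0.88 (SE 0.283, adjusted p = 0.0553) at 360 against 60 days. SGSH was 1.31, 2.69 and 3.11 FPKM at 60 days and 3.22, 3.30 and 4.85 at 360 days, without overlap, and 60 days replicate 1 was the lowest of the 18 libraries. HGSNAT, the acetyltransferase of the same pathway, was 7.33, 8.38 and 7.61 FPKM at 60 days and 6.52, 4.35 and 5.16 at 360 days, without overlap (log2 fold change -0.35, adjusted p = 0.108). SUMF1, which activates all sulfatases, was near level, at -0.02 (95% interval -0.26 to 0.21).

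Lipid breakdown in the lysosome, which frees fatty acids and cholesterol from endocytosed lipoproteins and membranes, showed no called gene in these 7 members, with 3 at an unadjusted p under 0.05 at 360 against 60 days (28.3% of all loci). PSAP, whose product is cut into the saposins that present sphingolipids to hydrolases, was the most abundant at 39.9 FPKM on average. It had 30.1, 40.7 and 40.2 FPKM at 60 days and 40.4, 51.3 and 54.0 at 360 days (log2 fold change 0.59, edgeR adjusted p = 0.0231). PPT1, a thioesterase that removes palmitate from proteins, had 0.38 (adjusted p = 0.0601), and ASAH1, the acid ceramidase, 0.19 (95% interval -0.09 to 0.48).

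LIPA, the acid lipase of cholesteryl esters and triglycerides, did not share the course of the proteases. Its locus, which also holds CH25H, had 13.5, 14.6 and 15.5 FPKM at 60 days, 12.2, 11.2 and 13.2 at 120 days, 8.43, 11.4 and 12.7 at 180 days, 8.74, 11.2 and 13.3 at 240 days, 11.12, 12.6 and 10.4 at 300 days, and 7.07, 16.3 and 10.5 at 360 days. The 60-day libraries were among the highest, and the 360-day libraries held both the lowest and the highest value. The log2 fold change was -0.18 (95% interval -0.68 to 0.32, edgeR adjusted p = 0.652). SMPD1, the acid sphingomyelinase, had the lowest log2 fold change of all 94 members, -0.91 (SE 0.327, adjusted p = 0.0812), from 5.70, 3.52 and 2.82 FPKM at 60 days to 1.95, 2.07 and 1.63 FPKM at 360 days. GM2A, the activator of ganglioside breakdown, spread widely within stages, with 6.64, 18.3 and 8.24 FPKM at 60 days. It was higher without overlap at 240 days (17.99, 11.4 and 11.8 FPKM) than at 180 days (3.62, 5.09 and 2.88 FPKM), a log2 fold change of 1.87 that was not called (SE 0.436, edgeR adjusted p = 0.258).

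DNASE2, the acid endonuclease that digests DNA of engulfed cells (MSTRG.11730, chromosome 2, 66149880 to 66152855), had 2.78, 3.96 and 4.56 FPKM at 60 days, 5.89, 5.91 and 6.38 at 120 days, 3.22, 4.77 and 5.59 at 180 days, 5.16, 5.04 and 4.47 at 240 days, 4.64, 5.79 and 5.55 at 300 days, and 5.38, 7.73 and 8.76 at 360 days. The 60-day libraries lay below those of 120, 300 and 360 days and overlapped those of 180 and 240 days. It rose 2.22-fold from 60 to 360 days (log2 fold change 1.15, SE 0.242, edgeR adjusted p = 0.00901). The phosphatases ACP2 and ACP5 had -0.09 (95% interval -0.36 to 0.17) and 0.51 (-0.57 to 1.60). ACP5, known from osteoclasts and macrophages, was between 0.567 and 0.803 FPKM at 120 days and at 0.572 FPKM or less in all other libraries.

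Among the membrane proteins, LITAF, a protein of late endosomes and lysosomes that binds ESCRT components (MSTRG.13315, chromosome 3, 31523434 to 31581512), had the most stable call. Its FPKM was 2.53, 1.93 and 2.07 at 60 days, 3.11, 4.09 and 3.22 at 120 days, 3.95, 4.57 and 4.60 at 180 days, 5.74, 5.14 and 6.03 at 240 days, 5.68, 4.93 and 8.24 at 300 days, and 8.92, 6.69 and 6.28 at 360 days. The stage means stood in the order of age, at 2.18, 3.47, 4.37, 5.64, 6.28 and 7.30 FPKM, while neighbouring stages overlapped except 60 and 120 days and 180 and 240 days. None of the 5 steps between neighbours was called, with log2 fold changes from 0.15 to 0.76. From 60 to 360 days it rose 3.80-fold (log2 fold change 1.93, SE 0.178, edgeR adjusted p = 9.63e-05), and it was called in this contrast with each of the 18 libraries left out and, at an adjusted p of 0.0185, without the 7 libraries low in Y-linked genes.

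The pair of cholesterol carriers were both lowest at 60 days. NPC1, the membrane protein that moves cholesterol out of the lysosome (MSTRG.18814, chromosome 6, 108403129 to 108450486), had 5.61, 5.44 and 6.55 FPKM at 60 days, 9.34, 11.9 and 7.31 at 120 days, 11.3, 9.68 and 12.4 at 180 days, 10.6, 12.7 and 14.7 at 240 days, 14.4, 12.6 and 13.1 at 300 days, and 9.13, 16.3 and 15.3 at 360 days. NPC2, the soluble protein that hands it cholesterol (MSTRG.20568, chromosome 7, 97730516 to 97740331), had 29.7, 30.8 and 33.8 FPKM at 60 days, 46.4, 45.4 and 62.0 at 120 days, 35.5, 42.7 and 43.2 at 180 days, 45.6, 39.4 and 46.3 at 240 days, 52.8, 42.8 and 45.6 at 300 days, and 40.8, 49.0 and 62.7 at 360 days. For both genes every later library exceeded the 60-day range. NPC1 rose by a log2 fold change of 1.40 (SE 0.222, edgeR adjusted p = 0.00173) from 60 to 360 days. NPC2 had 0.89 (SE 0.179, adjusted p = 0.00706), short of the minimum of 1, and its call across the 6 stages (adjusted p = 0.0452) was made in 2 of the 18 fits that left out 1 library.

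SLC11A1, the metal ion transporter of phagosomes known as NRAMP1 (MSTRG.8802, chromosome 15, 120433681 to 120447490), was low, at 0.245, 0.548 and 0.377 FPKM at 60 days, 2.00, 1.08 and 1.52 at 120 days, 0.367, 0.628 and 0.623 at 180 days, 0.573, 0.764 and 0.597 at 240 days, 0.458, 0.553 and 1.71 at 300 days, and 1.098, 2.59 and 1.54 at 360 days. It was high at 120 and 360 days and in 300 days replicate 3, and at 180 days it overlapped 60 days. From 60 to 360 days it rose by a log2 fold change of 2.33 (SE 0.467, edgeR adjusted p = 0.00712), the largest of the 94 members. LAPTM5, a lysosomal protein of blood-derived cells, had 0.87 (adjusted p = 0.0953), with 9.10, 22.7 and 10.985 FPKM at 60 days and 20.6, 25.1 and 22.8 at 360 days.

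CD164 had its highest stage means at 180 and 240 days. Its FPKM (MSTRG.521, chromosome 1, 75428689 to 75458157) was 127, 114 and 86.2 at 60 days, 84.4, 87.8 and 90.8 at 120 days, 257, 147 and 158 at 180 days, 176, 172 and 164 at 240 days, 217, 112 and 125 at 300 days, and 116, 71.2 and 60.5 at 360 days. All libraries of 180 and 240 days lay above all of 60, 120 and 360 days. The test across the 6 stages called it (edgeR adjusted p = 0.0342), and 8 of the 18 fits that left out 1 library did, while no contrast passed. The step from 120 to 180 days had a log2 fold change of 1.0995 (SE 0.273, adjusted p = 0.131). In 180 days replicate 1, the library with the highest CD164, the summed skeletal muscle markers stood at 223 FPKM, and in 120 days replicate 2, where CD164 was 87.8, at 120 FPKM, against 34.5 FPKM or less elsewhere. Their part in the level of CD164 was not tested.

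The genes of the 2 classical marker proteins of the lysosomal membrane differed in the sign of their log2 fold change, and neither was called. LAMP1 had 28.2, 30.6 and 28.4 FPKM at 60 days, 36.7, 36.6 and 34.6 at 120 days, 33.5, 33.2 and 36.4 at 180 days, 33.1, 33.2 and 32.7 at 240 days, 32.7, 36.3 and 33.6 at 300 days, and 33.5, 40.5 and 43.7 at 360 days. Its 60-day libraries were the 3 lowest, and the log2 fold change at 360 against 60 days was 0.63 (SE 0.118, edgeR adjusted p = 0.00504), below the minimum for a call. LAMP2, which also serves autophagy, had 23.9, 21.9 and 24.6 FPKM at 60 days and 16.0, 20.5 and 14.3 at 360 days, with -0.29 (SE 0.143, adjusted p = 0.191). The abundant CD63 and LAPTM4A, an endosomal membrane protein, had 0.34 (95% interval 0.07 to 0.61) and -0.19 (-0.45 to 0.07).

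No test called a sorting receptor or tag enzyme, and none had an unadjusted p under 0.05 at 360 against 60 days (edgeR). Their sum was 38.0 to 42.8 FPKM at 60 days and 38.5 to 39.7 FPKM at 360 days. IGF2R and M6PR, the mannose 6-phosphate receptors, had log2 fold changes of 0.11 (95% interval -0.16 to 0.38) and 0.10 (-0.09 to 0.30) at 360 against 60 days. M6PR had 6.69, 6.68 and 6.56 FPKM at 60 days and 6.07, 6.50 and 6.23 at 360 days, lower without overlap on this scale and higher without overlap in TMM-scaled counts, so its direction is set by the scaling. GNPTAB, the enzyme that begins the tag, had -0.04 (-0.30 to 0.23), and SORT1, sortilin, whose locus also holds PSMA5, had 0.27 (-0.24 to 0.79). NAGPA, which uncovers the tag, had 0.54 (-0.03 to 1.11), and GNPTG, in a locus with BAIAP3, 0.21 (-0.10 to 0.52). GNPTAB was the only member that lay below the 60-day range in all 9 libraries of 180 to 300 days, at 5.21 to 6.75 FPKM against 7.89 to 8.52 FPKM.

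The test across the 6 stages called 2 of the 21 adaptor genes (9.52%), which is near the 6.57% of all loci called. At 360 against 60 days 1 of the 21 was called higher, where 3.07% of all loci were. At 60 days against the other 5 stages 1 was called lower, where 0.95% were. The genes called, AP3M2 and AP3B1, encode subunits of AP-3, the complex that carries membrane proteins to lysosomes and related organelles. AP3M2, a medium subunit that in mammals is best known from neurons (MSTRG.9595, chromosome 17, 11167118 to 11193018), had 0.293, 0.387 and 0.460 FPKM at 60 days, 0.729, 0.805 and 0.729 at 120 days, 0.655, 0.612 and 1.13 at 180 days, 1.08, 1.16 and 1.01 at 240 days, 0.774, 1.11 and 0.739 at 300 days, and 0.740, 0.650 and 0.646 at 360 days. All later libraries lay above those of 60 days, and 240 days was the highest stage. Against the mean of the other 5 stages, 60 days was lower, at -1.24 on the log2 scale (SE 0.212, edgeR adjusted p = 0.00371), a call that held with each library left out. From 60 to 360 days AP3M2 rose by 1.02 (SE 0.251, adjusted p = 0.0183), a fold just past the minimum, and 14 of the 18 fits that left out 1 library called it. The edgeR adjusted p was 0.077 without 60 days replicate 1, 0.0555 without replicate 2 and 0.0577 without 360 days replicate 3, and without 360 days replicate 1 the log2 fold change was 0.98. The ubiquitous medium subunit AP3M1 had -0.30 in that contrast (adjusted p = 0.195), from 7.06 to 7.92 FPKM at 60 days to 4.15 to 7.43 FPKM at 360 days.

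AP3B1, the large beta subunit of the same complex (MSTRG.12218, chromosome 2, 86875445 to 87142784), had 8.31, 8.18 and 8.62 FPKM at 60 days, 8.10, 8.56 and 8.13 at 120 days, 7.18, 7.34 and 8.79 at 180 days, 9.65, 10.4 and 11.7 at 240 days, 11.8, 9.51 and 8.90 at 300 days, and 10.5, 11.05 and 8.02 at 360 days. The libraries of 240 and 300 days lay above all of the first 3 stages, and 360 days replicate 3 was low. Only the test across the 6 stages called it (edgeR adjusted p = 0.0405), and 5 of the 18 fits that left out 1 library did. Clathrin heavy chain CLTC stayed between 9.35 and 12.2 FPKM, with a log2 fold change of 0.27 at 360 against 60 days (95% interval 0.07 to 0.46), and AP3D1, the delta subunit, had 0.36 (0.04 to 0.68). AP1B1 and AP1S1, subunits of the AP-1 complex of the Golgi, had 0.70 (edgeR adjusted p = 0.00748) and 0.53 (adjusted p = 0.144).

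The proton pump and other lysosome genes outside the 94 were measured beside them. Of the 10 subunits of the V-ATPase with both annotations, 9 were tested. All 9 had a log2 fold change above 0 at 360 against 60 days, with a median of 0.42, and none was called, while 7 had an unadjusted p under 0.05 by edgeR (28.3% of all loci). Their summed FPKM was 49.90 to 50.02 in the 3 libraries of 60 days, 54.2 to 60.5 at 120 days and 50.9 to 63.2 at 360 days. The test across the 6 stages called 1 of the 9, where 6.57% of all loci were called. It was ATP6V0A4, a subunit known from the kidney and inner ear. It had 1.08, 1.73 and 1.24 FPKM at 240 days and 0.841 FPKM in 360 days replicate 1, against 0.125 FPKM or less in the other 14 libraries. ATP6V0A4 reached the minimum of 0.5 FPKM in 3 libraries only through the stage where it was high. Its call is therefore no independent evidence of a difference between stages.

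A list of 32 regulators of the lysosome and genes that anchor the growth kinase mTORC1 to it had no member called in any contrast, with 14 at an unadjusted p under 0.05 by edgeR at 360 against 60 days (28.3% of all loci). In that contrast 24 of 32 had a log2 fold change above 0 with a median of 0.24. The test across the 6 stages called 2 of the 32 (6.25%), GRN and VPS39, which is near the 6.57% of all loci called. GRN, progranulin, a lysosomal protein abundant in macrophages, had 18.7, 22.7 and 18.6 FPKM at 60 days, 35.8, 24.7 and 27.7 at 120 days and 24.2, 32.1 and 30.2 at 360 days, with 17.7 to 23.9 FPKM between (edgeR adjusted p = 0.0349). VPS39, a tethering protein of the HOPS complex, was highest at 180 days, at 6.38, 6.62 and 5.70 FPKM (adjusted p = 0.0419). TFEB, a transcription factor of lysosome genes, stood at 1.55 to 1.73 FPKM at 60 days, 2.18 to 2.45 at 120 days, 1.17 to 2.23 in the 9 libraries of 180 to 300 days and 1.91 to 2.41 at 360 days, and it was not called. Its relative TFE3 had 12.7, 11.3 and 11.6 FPKM at 60 days and 8.87, 9.22 and 10.7 at 360 days, lower without overlap on this scale and overlapping in scaled counts (log2 fold change -0.11, edgeR adjusted p = 0.591).

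Markers of other cell types differed in their course from list to list. The macrophage list holds 18 genes, none of them a member and none at 0 in every library, of which 17 were tested. Their summed FPKM was 43.5 to 74.8 at 60 days, 86.8 to 142 at 120 days, 41.9 to 92.5 in the 9 libraries of 180 to 300 days, and 110 to 140 at 360 days. At 360 against 60 days 16 of 17 had a log2 fold change above 0 (48.8% of all loci), with a median of 1.42. In that contrast 8 were called higher (3.07% of all loci), GPNMB, TYROBP, MSR1, CD14, VSIG4, CSF1R, MRC1 and ITGAM. From 120 to 180 days 15 of 17 were lower and from 300 to 360 days all 17 were higher (51.8% of all loci in the latter). In these steps edgeR called 0 of them and 0% of all loci, with 5 and 6 at an unadjusted p under 0.05 (12.4% and 9.08% of all loci). At 60 days against the other 5 stages 16 of 17 were lower, with a median of -0.77. There 2 were called lower (GPNMB and TYROBP), where 0.95% of all loci were. At 240 against 180 days 15 of 17 were higher, with a median of 0.30 and 0 called (0% of all loci). The granulocyte and mast cell markers summed to 3.36 to 4.62 FPKM at 60 days, overlapped that range at 120 days, and lay above 60 days at 6.24 to 17.3 in the 9 libraries of 180 to 300 days and at 7.87 to 8.59 at 360 days. Of the 4 tested, 3 were higher at 360 against 60 days and 1 was lower, at -1.01 on the log2 scale. CSF3R and KIT were called higher in that contrast, where 3.07% of all loci were. The adipocyte markers summed to 706 to 810 FPKM at 60 days and to 571 to 709 at 360 days, and the fibroblast markers to 2271 to 3389 FPKM at 120 days against 1802 FPKM or less elsewhere. At 360 against 60 days the median log2 fold change was 0.07 for adipocyte, -0.21 for fibroblast and 0.26 for endothelial markers. It was -1.62 for lymphocyte, 0.32 for smooth muscle and -3.20 for skeletal muscle markers. Called were 1 adipocyte and 1 smooth muscle marker higher, 1 fibroblast marker lower, and 1 endothelial marker in each direction (3.07% of all loci higher, 2.04% lower). The part of these cell types in the protease levels was not tested.

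**Figure D3:**
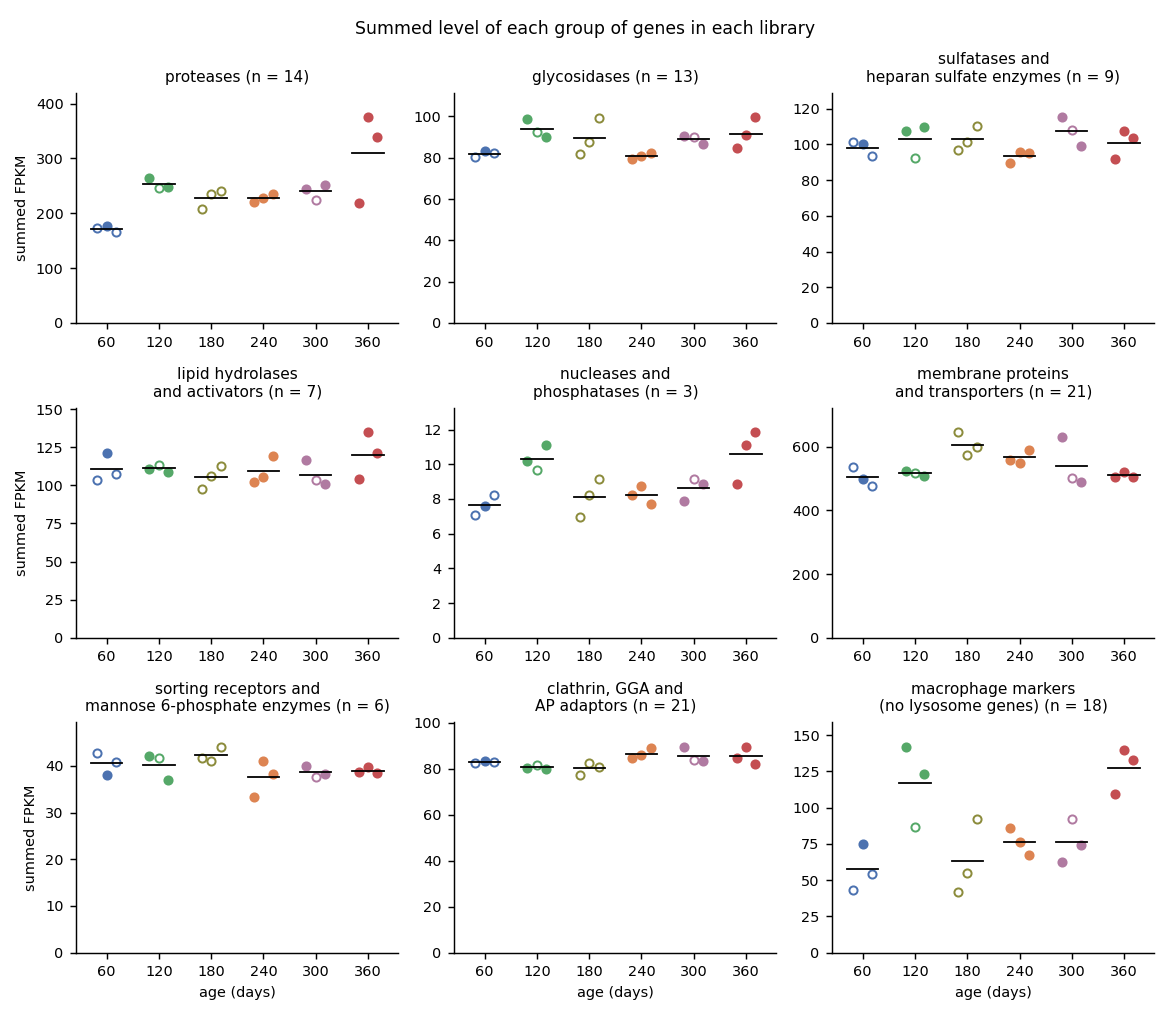
Summed FPKM (y axis) of the 8 groups of lysosome genes and of 18 macrophage markers in each of the 18 libraries, by age in days (x axis). Each point is 1 library, open where Y-linked genes were low, and the bar is the mean of 3. The proteases lie lowest at 60 days (165 to 177 FPKM), the membrane proteins peak at 180 days with CD164, and the sorting genes and adaptors are level, while the macrophage markers are high at 120 and 360 days.

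In the 9 libraries of 180, 240 and 300 days the proteases summed to 207 to 251 FPKM, above all 3 libraries of 60 days at 165 to 177 FPKM. The granulocyte and mast cell markers of these 9 libraries also lay above 60 days (6.24 to 17.3 against 3.36 to 4.62 FPKM). Their summed macrophage markers had a median of 74.5 FPKM against 54.0 at 60 days, with overlapping ranges (41.9 to 92.5 against 43.5 to 74.8). In 180 days replicate 1 the macrophage markers stood at 41.9 FPKM, the lowest of all libraries. Its proteases stood at 207 FPKM, the lowest of all libraries after 60 days. The 80 members outside the proteases summed to 891 to 955 FPKM at 60 days and 907 to 1089 FPKM in those 9 libraries, which overlap.

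By gene, 15 members lay above the 60-day range in all 9 libraries of 180 to 300 days in scaled counts, where 4.07% of all loci did, and 1 lay below, where 4.16% did. The 15 were the proteases CTSA, CTSB, CTSD, CTSL, CTSZ and LGMN, the membrane group's LAMP1, LITAF, NPC1 and NPC2, the adaptors AP3M2, CLTB and GGA2, the glycosidase IDUA and the thioesterase PPT1. CTSH, SLC11A1, DNASE2 and CTSS were not among them. Of the macrophage markers, GPNMB (4.48, 7.17 and 5.69 FPKM at 60 days, 7.27 to 14.7 at 180 to 300 days) and TYROBP (2.11 to 2.63 against 2.71 to 7.03 FPKM) also lay above the 60-day range in all 9 libraries. The markers CD163, CSF1R, MRC1, CD14, C1QA, C1QB, C1QC, MARCO, MSR1, AIF1 and ADGRE1 did not. The part of macrophages in the levels of these members was not tested at any stage.

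**Figure D4:**
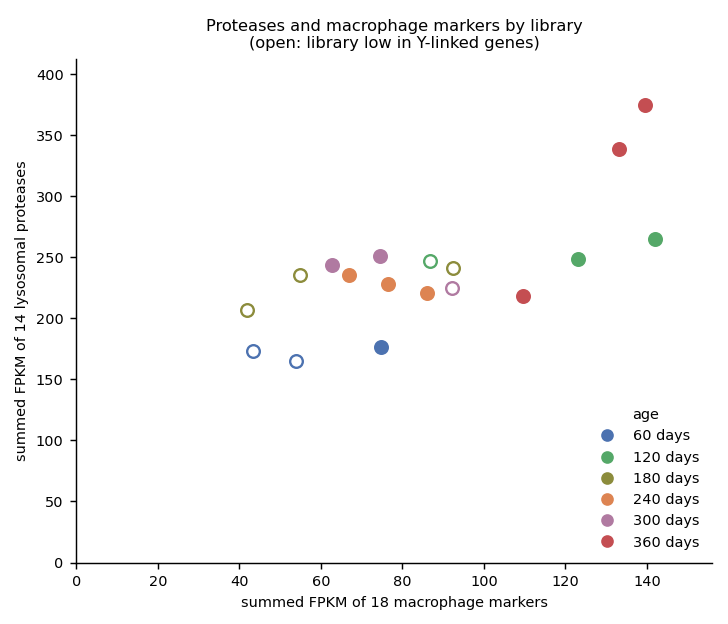
Summed FPKM of the 14 lysosomal proteases (y axis) against that of 18 macrophage markers (x axis), 1 point per library, coloured by age and open where Y-linked genes were low. The 3 libraries of 60 days lie at 165 to 177 FPKM on the y axis, where libraries of 180 to 300 days lie at 207 to 251 FPKM, and replicates 2 and 3 of 360 days are highest on the y axis at 375 and 339 FPKM.

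The plot of proteases against macrophage markers also sets 360 days replicate 1 apart from its stage. Its proteases summed to 218 FPKM, against 375 and 339 in replicates 2 and 3, and 11 of the 14 proteases were lowest in it among the 3. Its macrophage markers were at 110 FPKM against 140 and 133, and its smooth muscle markers, at 64.2 FPKM, were the highest of all libraries (18.1 to 48.0 FPKM in the other 17). The other enzyme groups were also lowest in replicate 1 of this stage. Its glycosidases summed to 84.6 FPKM, against 90.9 and 99.5 in replicates 2 and 3. Its sulfatases and heparan sulfate enzymes stood at 91.6 FPKM against 107.3 and 103.3, and its lipid hydrolases at 104.3 FPKM against 134.8 and 121.3. The sum of its nucleases and phosphatases was below both as well. Its membrane proteins, at 506 FPKM, and adaptors, at 84.5 FPKM, lay between those of the other two (520 and 505, 89.4 and 82.1 FPKM). Its sorting genes did so too. At 360 against 60 days 8 to 14 members were called when 1 library was left out.

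The 9 annotated genes below the minimum were AP1M2, CTSG, DNASE2B, PSAPL1, LAMP3, AP3B2, NAPSA, AP1S3 and a macrosialin-like locus, with mean FPKM from 0.00233 to 0.238. CTSG belongs to neutrophils, LAMP3 to dendritic cells and lung, and NAPSA to lung and kidney. Just outside the minimum, the macrosialin-like locus reached 0.5 FPKM in 2 libraries. Just inside, ACP5 reached it in 6, SLC11A1 in 14 and AP3M2 in 15.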

How the data were processed

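RNA of shoulder backfat from 18 pigs was sequenced after removal of ribosomal RNA, in paired-end libraries. Adapter trimming by the authors used Cutadapt, mapping to Sscrofa11.1 used Hisat2 and assembly used StringTie, which gave the deposited FPKM values. The deposited counts are whole numbers per locus, and how the authors took them from the alignments is not given in the sources used here. The deposited table was used for its counts (tests) and FPKM (levels), and 0 sample columns were left out. Total counts per library were 74077094 to 84236689, so the spread between pigs, not depth, sets the precision.

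Loci that reached 0.5 FPKM in 3 libraries or more were fitted with edgeR (version 4.0.16, R version 4.3.3), TMM scaling, 6 stage groups and all 18 libraries in 1 fit, with Benjamini-Hochberg adjustment over 19470 loci. The 8 tests were an F test across stages (adjusted p of at most 0.05), 5 adjacent contrasts, 360 against 60 days and 60 days against the mean of the rest (also a fold of 2 in either direction). All p-values are 2-sided. Standard errors are the log2 fold change over the square root of F. Intervals (95%) use 12 residual and 3.27 prior degrees of freedom. Members and lists were chosen with earlier results of these data known. The 50 genes named by rule are those called in any test, the 3 highest in level and in change at 360 against 60 days of each group, and genes that define the lysosome. Other members named were chosen after their values were seen. Some members named by the rule are not reported here. Of the members, 8 took their names from the gene ID table or the description.

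Alternatives were no filter, a minimum of 1 FPKM in at least 1 library, size factors of the median-of-ratios kind, DESeq2 (version 1.42.0), limma (version 3.58.1) on log2 of FPKM plus 0.1 or plus 1, a replicate block, the 2 stages alone, the adjusted p alone, and each library left out. A fit without the 7 libraries low in Y-linked genes was added after the data were seen. So was a fit with Y-linked level, low or not low, as a covariate. The test was checked on simulated counts.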

Additional observations from a re-analysis of the deposited data

How the results depend on the processing

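Of 227 counts of called members recomputed under the alternatives, 186 lay within 1.5 times the value reported, with 0 against 0 taken as within. The counts outside were 8 for the F test, 21 for 120 against 60 days, 4 for 360 against 60 days and 5 for 60 days against the rest. For the steps after 120 days they were 1, 1, 0 and 1. The reported count of those steps was 0, so their agreement is 0 against 0. For the F test across the 6 stages (12), DESeq2 gave 36, limma with a pseudocount of 0.1 gave 4, the fit without the 7 libraries low in Y-linked genes 1 and that with a covariate for Y-linked level 5. Leaving out 1 library gave 4 to 20. For 120 against 60 days (1), the count was 0 with no filter, with limma at either pseudocount, without the 7 libraries and with the covariate, 5 with DESeq2 and 2 with those stages alone, and 0 to 2 with 1 library left out. DESeq2 gave 2 for 180 against 120 days and 1 for 240 against 180 days, and leaving out 1 library gave 0 to 1 for 360 against 300 days. For 360 against 60 days (11) the count was 7 and 5 with limma at pseudocounts 0.1 and 1, 24 by adjusted p alone, 1 without the 7 libraries and 8 to 14 with 1 library left out. For 60 days against the other 5 stages (7) it was 3 and 2 with limma, 17 by adjusted p alone, 0 without the 7 libraries and 4 to 7 with 1 library left out. Over all loci, limma with a pseudocount of 0.1 called 806 in the F test. At pseudocounts 0.1 and 1 it called 1093 and 370 for 360 against 60 days, and 397 and 111 for 60 days against the other 5 stages. For 120 against 60 days those stages alone called 142 loci. The causes were not tested, except that the adjusted p alone asks less by construction and that fits without libraries hold fewer samples. No adjacent step has a value at 180 days without the 7 libraries, since all of that stage are among them.

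Replicate numbers did not pair pigs across stages. The mean correlation of residuals was 0.0108 for equal numbers (45 pairs, lowest -0.0931) and -0.00528 for unequal ones (90 pairs). A library correlated best with its own number in 7 of 18 cases. With a replicate block the counts were 13 (F test), 0 (120 against 60 days), 11 (360 against 60 days) and 7 (60 days against the rest).

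Of 1998 values of the 50 named genes, 1801 kept call and direction, 162 lost a call, 16 gained one and 19 changed sign, all in genes not called at 360 against 60 days. On FPKM with limma (pseudocounts 0.1 and 1) GLA was -0.1219 and -0.08602, ASAH1 -0.001522 and -0.0002139, IGF2R -0.07165 and -0.06783, and M6PR -0.08385 and -0.07367. Without the 7 libraries GLA was -0.006477, LAPTM4A 0.033, ACP2 0.1184 and ACP5 -0.1677. With 1 library left out, LIPA ran from -0.4797 to 0.07507 (above 0 without 360 days replicate 1), ACP2 from -0.1844 to 0.01615 (60 days replicate 1), GNPTAB from -0.1645 to 0.03669 (360 days replicate 1, and 0.01641 without replicate 3), and SUMF1 from -0.06051 to 0.01845 (60 days replicate 2, and 0.00659 without 360 days replicate 2). SUMF1 was 0.02252 with the covariate.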
